A study of Mus musculus with 2 samples.

Results

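Described here are 33 mouse genes of the ATF4 and amino acid stress response, listed by gene symbol among 32245 symbols counted in both libraries. Every symbol was found, on 34 of 32285 feature rows, because Ddit3 has a pair of rows and the second row held 0 UMIs. The genes were read as 6 transcription factors, 6 feedback and stress effectors, 9 amino acid and one-carbon enzymes, 5 amino acid transporters and 7 tRNA synthetases.

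ATF4 is translated preferentially when the initiation factor eIF2 is phosphorylated, as happens when amino acids run short or proteins misfold in the endoplasmic reticulum. Its known targets make serine, glycine and asparagine, import amino acids, charge tRNAs and feed back on the response. The eIF2 kinase PKR is itself the product of an IFN-induced gene.

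Subcutaneous MC38 colon adenocarcinomas in C57BL/6 mice were given intratumoral MSA-2, a STING agonist, for 3 doses at 3-day intervals, and the comparison tumors are labelled untreated. Each group is a single 10x library made from the pooled tumors of 3 mice, so a difference between groups could not be separated from one between animals, pools or libraries, and no test was made. After filtering, 13305 untreated and 13393 MSA-2 cells remained, and 39 barcodes occurred among the kept cells of both libraries. All values below are UMIs per 1000000 UMIs of the class (CPM), untreated first and MSA-2 second, and each 95% interval covers counting error only.

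Cells were sorted into classes by marker scores, and the tumor-like class held 6482 untreated and 7107 MSA-2 cells with a median of 20115.5 and 19634 UMIs. The class is a range cut from a score: 920 and 624 of these cells lay near a cut and were left out by a stricter gate. Over the tumor-like cells, the median score of the tumor list was 0.979 in untreated and 0.952 in MSA-2 tumors, and the medians of the NK/T, endothelial and pericyte lists were 0 in both. The macrophage list had a median score of 0.401 and 0.150 there, and the fibroblast list 0.572 and 0.783, beside 3.36 and 2.79 in fibroblast-like cells. The tumor list also stood at 63.1% and 44.3% of its tumor-like level in fibroblast-like cells, and at 71.6% and 64.8% in endothelial-like cells, so these classes were told apart by their own lists. Gng11, the most abundant gene of the tumor list, stood at 1325 and 2085 CPM in tumor-like cells but at 1501 and 1576 CPM in endothelial-like cells. The label of the tumor class thus rests on the tumor list together with scores below the cuts of all other lists.

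The member sum was close to level in tumor-like cells. It was 5920.0 CPM in untreated tumors against 5643 CPM in MSA-2 tumors (log2 ratio −0.07, −0.07 to −0.06). Nupr1, at 703 and 463 CPM, had the largest difference in CPM of any member there. The sums of the 5 other classes compared were below the tumor-like sum in untreated tumors. In MSA-2 tumors they were nearer to the tumor-like sum or above it. In fibroblast-like cells, of which there were 186 and 598, the sum was 3124 and 4199.5 CPM (log2 ratio 0.43, 0.39 to 0.46). In endothelial-like cells, of which there were 56 and 73, it was 2194 and 3363 CPM (log2 ratio 0.62, 0.52 to 0.71). The stromal sums thus stood closer to the tumor in MSA-2 tumors. Macrophage-like cells held 3019 and 4425 CPM (log2 ratio 0.55, 0.53 to 0.57). Ly6c2 monocyte-like cells held 3770.1 and 5915 CPM (log2 ratio 0.65, 0.61 to 0.69). NK/T-like cells, 1377 in untreated and 213 in MSA-2 tumors, held 2389 and 3077 CPM (log2 ratio 0.36, 0.31 to 0.42). That log2 ratio was 0.16 with doublets kept. The NK/T list stood at 4723 and 3147 CPM in these cells, and the fibroblast list at 50019 and 28634 CPM in fibroblast-like cells. These values stand beside every ratio given for both classes, and their part in the ratios was not tested. The difference in leukocytes was carried largely by a single gene. Without Ppp1r15a the log2 ratio of the sum was 0.18 in macrophage-like and 0.06 in Ly6c2 monocyte-like cells. It was −0.06 in NK/T-like cells, where TMM scaling turned it above 0 again. In endothelial-like cells it was 0.36 without Ppp1r15a, beside 0.62 with that gene, so less of the difference there rested on it.

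Neutrophil-like cells, 30 in untreated and 2470 in MSA-2 tumors, were too few in the untreated library for a ratio. Their member sum was 10009.9 CPM in untreated tumors against 6764 CPM in MSA-2 tumors, the highest of any class in both libraries. Most of it was Cebpb and Slc7a11, and Cebpb alone made up 45.2% and 45.9%. Tumor-like cells led in breadth: of the 32 members other than Slc7a3, 22 in untreated and 21 in MSA-2 tumors reached their highest level in the tumor-like class, among classes of at least 50 cells.

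**Figure D1:**
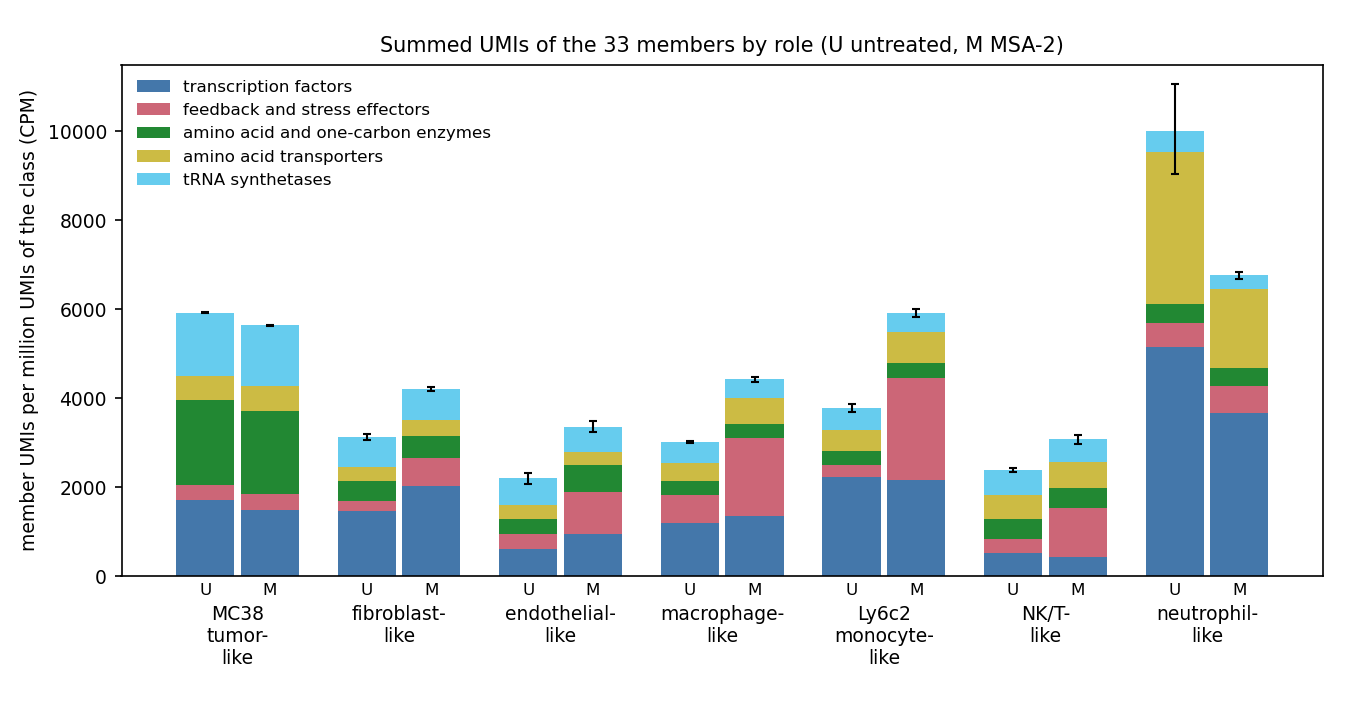
Member sum by role in each cell class, in untreated (U) and MSA-2 (M) tumors. Bars give UMIs of the members per 1000000 UMIs of the class, and error bars the exact 95% interval of the whole sum, which covers counting error only. The neutrophil-like class of untreated tumors holds 30 cells.

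Of the 32 members measured in tumor-like cells, 2 were higher past 1.5-fold in MSA-2 tumors (17.7% of all measured genes were). Another 2 were lower past that fold (11.6% of all measured genes were). With TMM scaling the member counts were 1 and 3, while these percentages are without it. Slc7a3 had 19 and 22 UMIs in tumor-like cells and stayed under the minimum of 50 in every class. The median log2 ratio of the members was 0.03, beside 0.05 for all measured genes. These counts are small, and the difference from genes at large was not tested. The member median turned negative with TMM scaling (−0.0472) and with median-of-ratios scaling (−0.03101), as did the all-gene median.

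In fibroblast-like cells 8 of 32 members were higher past the fold (12.7% of all measured genes were) and 1 was lower (20.2%). In endothelial-like cells 7 of 22 were higher (12.0%) and 1 was lower (17.1%). At 2-fold these higher counts were 2 in fibroblast-like and 4 in endothelial-like cells, while the percentages given are for 1.5-fold only. In macrophage-like cells 4 of 30 were higher (12.3%) and 3 were lower (16.6%). In Ly6c2 monocyte-like cells 4 of 26 were higher (16.0%) and 4 were lower (30.6%). With TMM scaling, which also moves the shares of all genes, the member counts were 8 and 2, while these percentages are without it. In NK/T-like cells 3 of 27 were higher (9.14%) and 3 were lower (21.0%). With doublets kept the member counts were 1 and 7, while these percentages are with doublets removed. Against the median of all genes, the member medians stood higher in each class outside the tumor: 0.11 beside −0.16 in fibroblast-like, 0.24 beside −0.13 in endothelial-like, 0.04 beside −0.15 in macrophage-like, −0.03 beside −0.29 in Ly6c2 monocyte-like and −0.05 beside −0.17 in NK/T-like cells, with TMM scaling turning the last pair of member medians above 0, and the all-gene medians of fibroblast-like, endothelial-like and Ly6c2 monocyte-like cells as well. With doublets kept the member median was −0.11 in macrophage-like and 0.20 in Ly6c2 monocyte-like cells, so that both turned sign. TMM scaling took a log2 of −0.24 from every ratio in fibroblast-like, −0.17 in endothelial-like and −0.30 in Ly6c2 monocyte-like cells, which places the ratios there correspondingly higher.

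**Figure D2:**
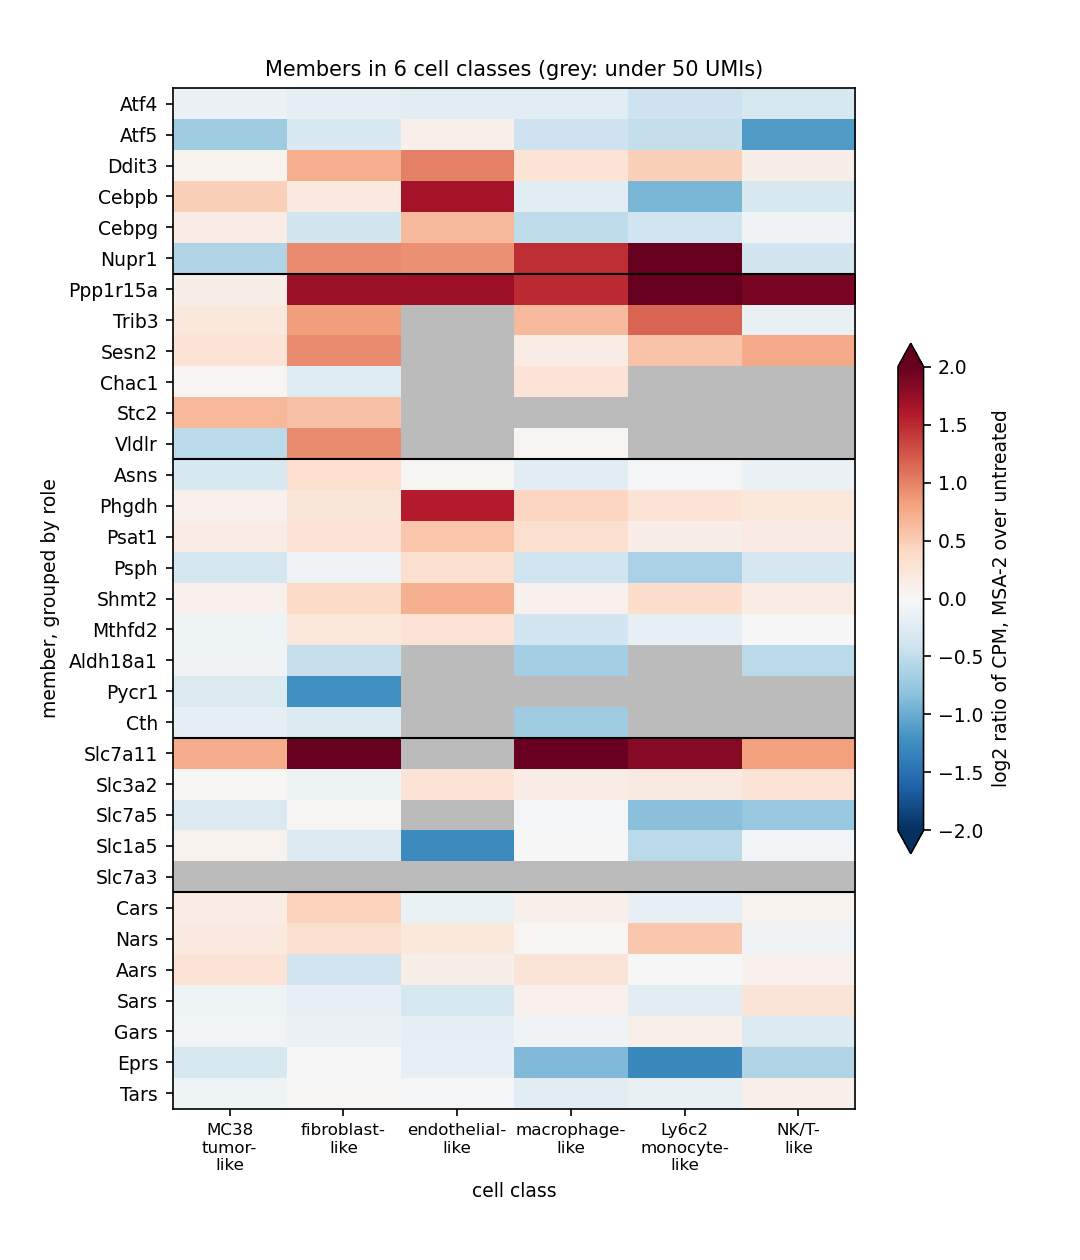
Log2 ratio of CPM, MSA-2 over untreated, of each member in the 6 classes with at least 50 cells in both libraries. Grey marks members with fewer than 50 UMIs in both libraries together. The color scale ends at 2 in both directions.

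The transcription factors did not share a direction. Atf4 was 398 CPM in untreated tumors against 369 CPM in MSA-2 tumors (log2 ratio −0.11, −0.13 to −0.09) in tumor-like cells, and its log2 ratio was below 0 in all 6 classes without passing the fold in any, though TMM scaling turned it above 0 in fibroblast-like cells. Atf5, a related factor under ATF4 control, was lower past the fold in tumor-like cells, at 180.2 and 110.2 CPM (log2 ratio −0.71, −0.74 to −0.68). It was lower past the fold in NK/T-like cells as well, at 30.7 and 14.1 CPM (log2 ratio −1.13, −1.97 to −0.39). Ddit3, which encodes the stress factor CHOP, was 146 and 153 CPM (log2 ratio 0.07, 0.04 to 0.09) in tumor-like cells, a ratio that TMM scaling turned below 0. Ddit3 was above 0 in the 5 other classes and was higher past the fold in fibroblast-like cells, at 69.5 and 116 CPM (log2 ratio 0.73, 0.49 to 0.98). Cebpg, a partner of ATF4 in DNA binding, was 59.7 and 66.4 CPM (log2 ratio 0.15, 0.11 to 0.19) in tumor-like cells and was higher past the fold in endothelial-like cells alone. Thus Atf4 transcripts and those of its partners did not move as a block.

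Nupr1 and Cebpb took opposite directions in different classes. Nupr1, a small stress-induced nuclear protein, was the most abundant transcription factor of the list in tumor-like cells and was lower past the fold there, at 703 and 463 CPM (log2 ratio −0.60, −0.62 to −0.59). In Ly6c2 monocyte-like cells it was higher past the fold, at 179.7 and 968 CPM (log2 ratio 2.43, 2.26 to 2.60). Nupr1 was also higher past the fold in macrophage-like cells, at 171 and 478 CPM (log2 ratio 1.48, 1.41 to 1.55), in which it came level with the tumor. In fibroblast-like cells it was 539.7 and 1039 CPM (log2 ratio 0.94, 0.86 to 1.03), the highest level of any class in MSA-2 tumors. Nupr1 was thus highest in the tumor without MSA-2 and no longer so with it. Cebpb, a factor of myeloid and acute phase genes, was 229 and 319.8 CPM (log2 ratio 0.48, 0.46 to 0.50) in tumor-like cells. It was lower past the fold in Ly6c2 monocyte-like cells, at 1722 and 917 CPM (log2 ratio −0.91, −0.99 to −0.83). In endothelial-like cells it was higher past the fold, at 74.4 and 235 CPM (log2 ratio 1.66, 1.17 to 2.18).

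Ppp1r15a was higher past the fold in the 5 other classes compared and not in tumor-like cells. It encodes GADD34, the subunit that directs a phosphatase to eIF2, and was 169.6 CPM in untreated tumors against 183 CPM in MSA-2 tumors (log2 ratio 0.11, 0.09 to 0.13) in tumor-like cells. In macrophage-like cells it was 603 and 1693 CPM (log2 ratio 1.49, 1.45 to 1.53). The macrophage list stood at 39777 and 29440 CPM in these cells. There the Ly6c2 monocyte list stood at 12.8% and 22.1% of its level in its own class, and the neutrophil list at 0.427% and 1.26%. These values stand beside every macrophage-like ratio given here, and their part in the ratios was not tested. In Ly6c2 monocyte-like cells Ppp1r15a was 246 and 2248 CPM (log2 ratio 3.19, 3.05 to 3.34), the largest ratio of any measured member in these cells. NK/T-like cells held 284 and 1059 CPM (log2 ratio 1.90, 1.79 to 2.01). Both stromal classes followed the leukocytes. Ppp1r15a was 162 and 538 CPM (log2 ratio 1.73, 1.58 to 1.89) in fibroblast-like cells. It was 272 and 895 CPM (log2 ratio 1.72, 1.46 to 1.98) in endothelial-like cells. Neutrophil-like cells, not compared, held 494 and 532 CPM. Of the macrophage-like cells thinned to 5000 UMIs, 77.7% of 2278 in untreated and 92.5% of 547 in MSA-2 tumors held a Ppp1r15a UMI, with 1439 and 652 shallower cells left out. Among tumor-like cells thinned alike the share was 56.8% and 57.9%, and unthinned 89.1% and 90.5%, at the deeper median given above.

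The other effectors took different directions in tumor-like cells. Trib3, a pseudokinase that dampens ATF4, was 68.4 and 79.6 CPM (log2 ratio 0.22, 0.18 to 0.26) there. It was higher past the fold in macrophage-like cells, at 10.5 and 16.5 CPM (log2 ratio 0.65, 0.30 to 0.99), which is 15.3% and 20.7% of its tumor-like level, beside tumor markers at 16.7% and 20.7% of theirs. That call was lost with doublets kept. Sesn2, a leucine sensor of the mTORC1 pathway, was 30.5 and 36.9 CPM (log2 ratio 0.27, 0.22 to 0.33) in tumor-like cells. Chac1, which degrades glutathione and is read as a sensitive ATF4 target, was 35.3 and 36.1 CPM (log2 ratio 0.03, −0.02 to 0.09) in tumor-like cells, with an interval that spans 0 and a sign that TMM scaling turned. Trib3 and Sesn2 were thus slightly above level in the tumor and Chac1 near it. Stc2, a secreted glycoprotein, was higher past the fold in tumor-like cells at a low level, 5.41 and 8.55 CPM (log2 ratio 0.66, 0.53 to 0.79), and under the fold with TMM scaling. Vldlr, a lipoprotein receptor, was 23.9 and 16.4 CPM (log2 ratio −0.54, −0.61 to −0.47) in tumor-like cells, and lower past the fold with TMM scaling, with median-of-ratios scaling and with equal weight per cell. In fibroblast-like cells Vldlr was higher past the fold, at 14.3 and 27.6 CPM (log2 ratio 0.95, 0.42 to 1.52).

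No enzyme passed the fold in tumor-like cells. The summed level of the enzymes was 1913 CPM in untreated tumors against 1880.0 CPM in MSA-2 tumors (log2 ratio −0.02, −0.03 to −0.02), of which Phgdh made up 47.2% and 51.1%. Phgdh, which opens the serine pathway, was 902 and 961 CPM (log2 ratio 0.09, 0.08 to 0.10). Psat1, the next step of that pathway, was 141 and 157 CPM (log2 ratio 0.15, 0.13 to 0.18). Psph, the last step, was 196 and 153 CPM (log2 ratio −0.35, −0.38 to −0.33). The serine pathway was therefore split, with its first steps slightly above level and its last step below. Asns, which makes asparagine, was 291 and 236 CPM (log2 ratio −0.30, −0.32 to −0.28). Shmt2, which turns serine into glycine in mitochondria, was 120.0 and 127 CPM (log2 ratio 0.09, 0.06 to 0.12). Mthfd2, which carries the one-carbon unit on, was 198 and 186 CPM (log2 ratio −0.08, −0.11 to −0.06).

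The proline enzymes and the cysteine enzyme were less abundant. Aldh18a1, which starts proline synthesis, was 28.7 and 27.4 CPM (log2 ratio −0.07, −0.13 to −0.01) in tumor-like cells. Pycr1, which ends it, was 13.5 and 11.04 CPM (log2 ratio −0.28, −0.38 to −0.19). In fibroblast-like cells Pycr1 was lower past the fold, at 23.5 and 10.0 CPM (log2 ratio −1.23, −1.73 to −0.71), so that its highest class in untreated tumors was no longer its highest in MSA-2 tumors. Cth, which makes cysteine from cystathionine, was 22.8 and 20.03 CPM (log2 ratio −0.19, −0.26 to −0.12) in tumor-like cells.

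Leukocyte classes also held tumor marker UMIs, and enzyme levels there were read beside them. In macrophage-like cells the tumor marker list stood at 16.7% of its tumor-like level in untreated and 20.7% in MSA-2 tumors. Asns stood at 12.7% and 13.5% of its tumor-like level in the same cells. Phgdh stood at 13.6% and 17.1%. Mthfd2 stood higher than the markers, at 27.2% and 22.1%. The enzymes thus did not share a level relative to the markers. Of 32 members, 11 in untreated and 9 in MSA-2 tumors were above 2 times the marker percentage in macrophage-like cells, so that most members there lay within 2 times the level of the tumor markers. In NK/T-like cells, with the markers at 18.4% and 14.9%, 12 and 19 of 32 members were above 2 times that percentage. The source of these UMIs was not tested, nor whether the leukocyte classes express genes of the tumor list themselves. In endothelial-like cells Phgdh was higher past the fold, at 109 and 325 CPM (log2 ratio 1.58, 1.17 to 2.005).

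Slc7a11 was the transporter with the widest difference. It encodes the cystine/glutamate antiporter and was higher past the fold in 5 of the 5 classes in which it was measured, though in NK/T-like cells not with doublets kept, with the stricter gate or at a minimum of 200 UMIs. In tumor-like cells it was 44.5 CPM in untreated tumors against 74.7 CPM in MSA-2 tumors (log2 ratio 0.75, 0.70 to 0.79). Fibroblast-like cells held 9.56 and 90.1 CPM (log2 ratio 3.24, 2.63 to 3.92). In macrophage-like cells it was 52.4 and 206 CPM (log2 ratio 1.97, 1.86 to 2.09). Ly6c2 monocyte-like cells held 87.2 and 308 CPM (log2 ratio 1.82, 1.57 to 2.08). The myeloid classes thus exceeded the tumor, and neutrophil-like cells far exceeded both, at 3120.0 CPM in untreated tumors against 1515 CPM in MSA-2 tumors. Neutrophil markers in tumor-like cells stood at 0.0201% of their neutrophil-like level in untreated and 0.468% in MSA-2 tumors. That share of the neutrophil-like level of Slc7a11 is 0.628 CPM for untreated tumor-like cells and 7.096 CPM for those with MSA-2. In NK/T-like cells the same reckoning gives 4.28 CPM and 6.44 CPM. In Ly6c2 monocyte-like cells it gives 46.1 CPM and 36.3 CPM. It gives 13.3 CPM and 19.1 CPM in macrophage-like and 3.1045 CPM and 8.14 CPM in fibroblast-like cells. The untreated neutrophil-like level rests on 30 cells. In untreated Ly6c2 monocyte-like cells Clec4e made up 264 of the 509 CPM of the neutrophil list. In untreated NK/T-like cells Il1r2 made up 38.2 of 47.4 CPM. Whether these classes express such genes themselves was not tested, so the share is not an amount of neutrophil RNA. Whether neutrophil RNA contributes to the Slc7a11 levels was not tested.

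The partner subunit did not follow. Slc3a2, the heavy chain that Slc7a11 and Slc7a5 both need, was 320.1 and 327 CPM (log2 ratio 0.03, 0.01 to 0.05) in tumor-like cells, below 0 with TMM scaling, and passed the fold in no class. Slc7a5, the leucine transporter, was 102 and 83.8 CPM (log2 ratio −0.29, −0.32 to −0.25) in tumor-like cells. It was lower past the fold in Ly6c2 monocyte-like cells, at 38.1 and 21.3 CPM (log2 ratio −0.84, −1.37 to −0.31), though not with TMM scaling or with doublets kept. In NK/T-like cells Slc7a5 was likewise lower past the fold, at 68.3 and 40.4 CPM (log2 ratio −0.76, −1.23 to −0.31). Slc1a5, the glutamine transporter, was 63.3 and 66.2 CPM (log2 ratio 0.07, 0.03 to 0.11) in tumor-like cells and below 0 with TMM scaling. In tumor-like cells Slc7a11 and Slc7a5 thus differed in opposite directions, with Slc3a2 near level.

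The remaining members past the fold outside the tumor rested on fewer UMIs. Trib3 was higher in Ly6c2 monocyte-like cells, at 7.02 and 15.7 CPM (log2 ratio 1.16, 0.22 to 2.21). Trib3 was likewise higher in fibroblast-like cells, at 9.99 and 17.8 CPM (log2 ratio 0.83, 0.20 to 1.53). Sesn2 was higher in fibroblast-like cells, at 12.6 and 24.3 CPM (log2 ratio 0.95, 0.39 to 1.56). Trib3 stood at 10.3% and 19.7% of its tumor-like level in Ly6c2 monocyte-like cells, beside tumor markers at 21.8% and 24.97% of theirs. In fibroblast-like cells it stood at 14.6% and 22.4%, beside markers at 63.1% and 44.3%. These Trib3 levels thus lay under the share of the tumor markers. The most abundant gene of that list in fibroblast-like cells was Ccn1 in untreated (833 CPM) and Anxa1 in MSA-2 tumors (681 CPM). In untreated Ly6c2 monocyte-like cells it was Anxa1 (287 CPM). Whether these classes express such genes themselves was not tested, so the share is not an amount of tumor RNA. Sesn2 was higher in NK/T-like cells at 10.9 and 18.4 CPM (log2 ratio 0.75, −0.04 to 1.49), with an interval that spans 0, and under the fold with doublets kept and with the stricter gate. Stc2 was higher in fibroblast-like cells at 10.9 and 16.3 CPM (log2 ratio 0.59, −0.03 to 1.26), again with 0 inside the interval, and under the fold with equal weight. Slc7a11 was higher in NK/T-like cells, at 10.4 and 18.4 CPM (log2 ratio 0.83, 0.03 to 1.57), but under the fold with doublets kept and with the stricter gate. In endothelial-like cells, which held the fewest UMIs of the classes compared, the calls were mixed. Ddit3 was higher there, at 32.7 and 65.9 CPM (log2 ratio 1.01, 0.23 to 1.87).

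Cebpg was higher in endothelial-like cells, at 74.4 and 117 CPM (log2 ratio 0.65, 0.11 to 1.21), though not with equal weight. Nupr1 was higher there as well, at 138 and 260.3 CPM (log2 ratio 0.92, 0.53 to 1.31). Shmt2 was higher there at 29.0 and 47.4 CPM (log2 ratio 0.71, −0.16 to 1.64), but turned to −0.25 with equal weight per cell. In this class of 56 and 73 cells the calls thus rested on few cells. Slc1a5 was the endothelial member lower past the fold, at 87.1 and 35.9 CPM (log2 ratio −1.28, −1.98 to −0.60). Psph was lower in Ly6c2 monocyte-like cells, at 39.8 and 25.4 CPM (log2 ratio −0.65, −1.14 to −0.15), though not with TMM scaling, with doublets kept or with equal weight. Aldh18a1 was lower in macrophage-like cells, at 8.35 and 5.21 CPM (log2 ratio −0.68, −1.27 to −0.13), though not with equal weight per cell. The lower calls thus included enzymes and a transporter. Cth was lower in macrophage-like cells at 3.19 and 1.96 CPM (log2 ratio −0.71, −1.73 to 0.19), with an interval that spans 0, and within the fold with doublets kept, with equal weight and with the stricter gate.

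The tRNA synthetases were level in tumor-like cells as a sum, at 1429 CPM in untreated tumors against 1371 CPM in MSA-2 tumors (log2 ratio −0.06, −0.07 to −0.05). Aars, which charges alanine tRNA, was 81.1 and 98.7 CPM (log2 ratio 0.28, 0.25 to 0.32). Nars, for asparagine, was 220.2 and 252 CPM (log2 ratio 0.19, 0.17 to 0.22). Cars, for cysteine, was 65.8 and 72.7 CPM (log2 ratio 0.14, 0.10 to 0.18). These were the synthetases above level, and the remaining ones were below it. Gars, for glycine, was 260.5 and 250.3 CPM (log2 ratio −0.06, −0.08 to −0.04). Tars, for threonine, was 177 and 167 CPM (log2 ratio −0.08, −0.11 to −0.06). Sars, for serine, was 224 and 210.3 CPM (log2 ratio −0.09, −0.11 to −0.07). Eprs, the joint enzyme for glutamate and proline, was lowest.

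Eprs was lower past the fold in 3 classes. It was 400.5 and 319.5 CPM (log2 ratio −0.33, −0.34 to −0.31) in tumor-like cells, and its log2 ratio was below 0 in all 6 classes, though TMM scaling turned it above 0 in both stromal classes. In macrophage-like cells it was lower past the fold, at 152 and 82.5 CPM (log2 ratio −0.88, −1.02 to −0.74). Ly6c2 monocyte-like cells held 169 and 69.4 CPM (log2 ratio −1.28, −1.55 to −1.02). In NK/T-like cells it was 198 and 131 CPM (log2 ratio −0.60, −0.86 to −0.35), under the fold with TMM scaling and with the stricter gate. The synthetases outside the members with which Eprs could be compared had a median log2 ratio of 0.08 in tumor-like, −0.14 in macrophage-like, −0.37 in Ly6c2 monocyte-like and −0.00382 in NK/T-like cells, with the last one turned above 0 by TMM scaling. The Ly6c2 monocyte-like median lay beside −0.29 for all genes, and TMM scaling raised both by 0.30, which turned the second above 0.

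**Figure D3:**
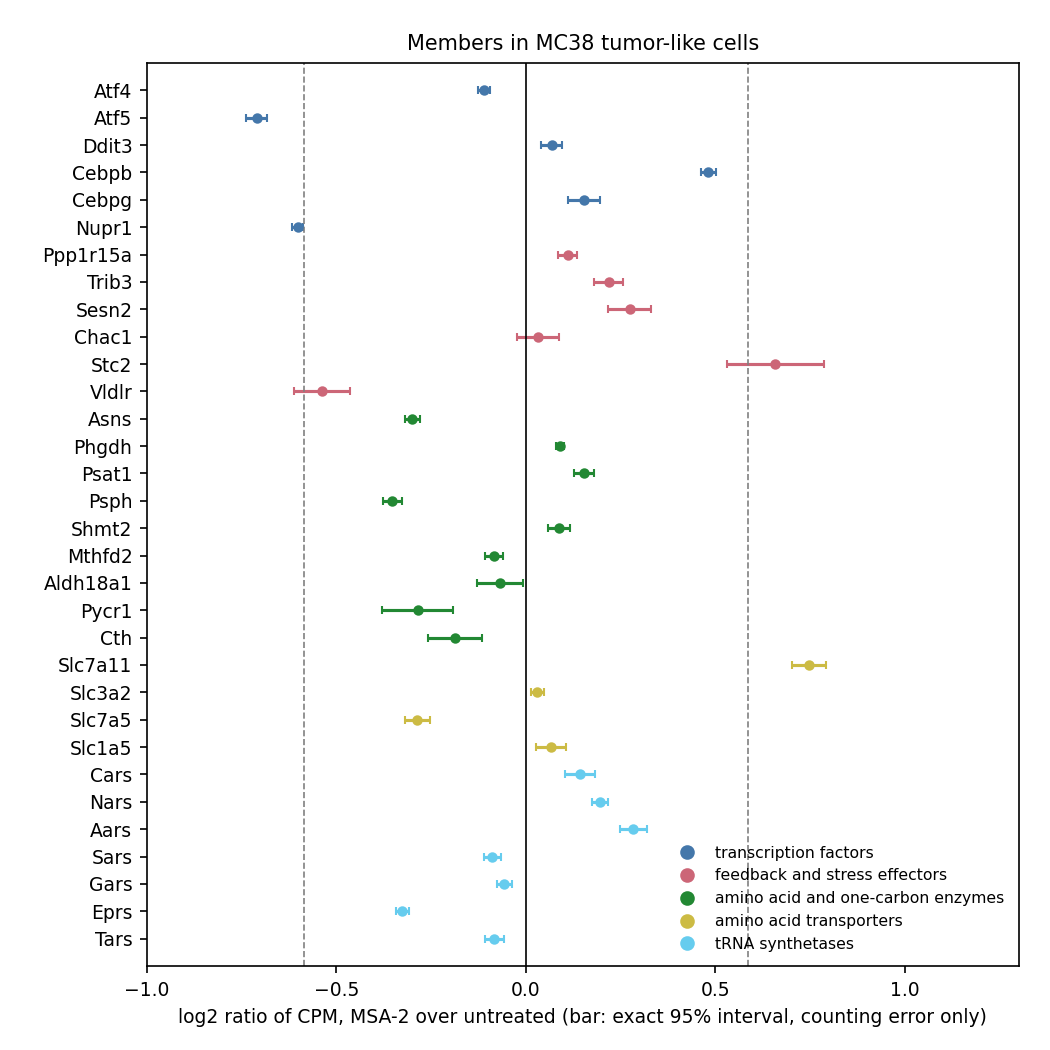
Log2 ratio of CPM, MSA-2 over untreated, of each measured member in MC38 tumor-like cells, colored by role. Bars give exact 95% intervals, which cover counting error only. Dashed lines mark 1.5-fold.

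Among tumor-like cells the member sum varied well beyond counting error in both libraries. Cells were thinned to 5000 UMIs, which left 6021 untreated and 6624 MSA-2 cells and left out 461 and 483 shallower ones. The median cell held 28 member UMIs in untreated tumors and 26 with MSA-2, with the 10th and 90th percentiles at 17 and 42 in untreated and at 16 and 40 in MSA-2 tumors. The coefficient of variation beyond counting error was 31.4% in untreated and 27.8% in MSA-2 tumors. The upper tail was thinner in the MSA-2 library: 9.85% of untreated and 6.30% of MSA-2 cells lay above the 90th percentile of the untreated cells. The untreated share is set by that cut, and cells are not replicates, so the difference was not tested. The lower tails were close, with 9.53% and 10.3% of cells below the 10th percentile of the untreated cells. The narrower spread did not hold without the pair of members with the highest variance over mean: leaving out Phgdh and Nupr1 turned the order around, to 33.8% in untreated and 36.4% in MSA-2 tumors.

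**Figure D4:**
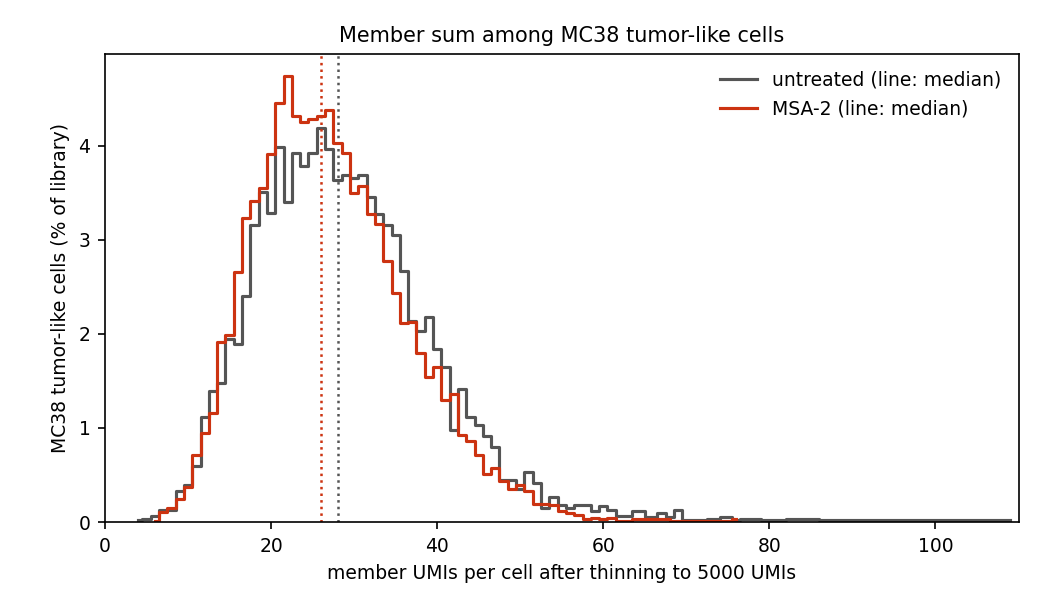
Member UMIs per tumor-like cell after thinning to 5000 UMIs, as a share of the cells of each library. Dotted lines mark the medians.

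Nupr1 and Phgdh, the most abundant members, had the largest variance over mean, a ratio that grows with abundance. Nupr1 had a variance over mean of 6.28 in untreated and 3.78 in MSA-2 tumors. Phgdh had one of 4.33 in untreated and 3.62 in MSA-2 tumors. Slc7a11 had one of 1.60 in untreated and 2.28 in MSA-2 tumors, with a mean of 0.244 and 0.420 UMIs per cell. Relative to that mean, its coefficient of variation beyond counting error was 156% and 175%. Slc7a11 UMIs were found in 18.5% and 27.2% of thinned tumor-like cells, in 45.4% and 61.3% of the unthinned ones, and in 15.3% and 32.5% of macrophage-like cells thinned alike. Ddit3 had a variance over mean of 2.63 in untreated and 1.52 in MSA-2 tumors, or of 1.95 and 1.498 without the cell with most Ddit3 UMIs in each library (59 and 11), a step added after these values had been seen. Gars had a variance over mean of 1.28 in untreated and 1.23 in MSA-2 tumors, with a coefficient of variation beyond counting error of 49.7% and 45.3%.

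Most members varied together from cell to cell. Tumor-like cells were ordered into quintiles by the thinned sum of all members but the one shown, so that no gene was compared with itself. Of 29 members with at least 20 CPM in both libraries, 20 were higher past 1.5-fold in the highest quintile than in the lowest in both libraries, beside 0.972% of 5656 genes outside the members. The lowest and highest quintiles also differed in depth before thinning, with a median of 17923 and 23296.5 UMIs in untreated and 18066 and 25217 in MSA-2 tumors. Median mitochondrial UMIs were 3.16% and 2.55% in untreated and 3.17% and 2.59% in MSA-2 tumors. The order thus also followed these cell qualities. The median of the smaller log2 ratio was 0.71 over these members and −0.11 over the other genes. Chac1 was among the steepest, from 11.1 to 56.8 CPM in untreated (log2 ratio 2.35) and from 13.9 to 67.5 CPM in MSA-2 tumors (log2 ratio 2.28). Cth ran from 8.30 to 33.6 CPM in untreated (log2 ratio 2.02) and from 4.98 to 36.6 CPM in MSA-2 tumors (log2 ratio 2.88). Trib3 ran from 31.4 to 115 CPM in untreated (log2 ratio 1.87) and from 32.0 to 129.8 CPM in MSA-2 tumors (log2 ratio 2.02). Chac1, Cth and Trib3 thus followed the other members in both libraries.

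The other enzymes followed, apart from Phgdh. Psph ran from 88.5 to 242 CPM in untreated (log2 ratio 1.45) and from 75.02 to 202 CPM in MSA-2 tumors (log2 ratio 1.43). Mthfd2 ran from 88.0 to 237 CPM in untreated (log2 ratio 1.43) and from 95.1 to 248 CPM in MSA-2 tumors (log2 ratio 1.38). Asns ran from 142 to 348 CPM in untreated (log2 ratio 1.29) and from 104 to 308 CPM in MSA-2 tumors (log2 ratio 1.56). After Cth, the steepest enzymes were thus those of asparagine, serine and one-carbon synthesis. Ddit3 ran from 115 to 255 CPM in untreated (log2 ratio 1.15) and from 86.3 to 228 CPM in MSA-2 tumors (log2 ratio 1.403). Atf4 itself had a shallower slope, from 295 to 482 CPM in untreated (log2 ratio 0.71) and from 283 to 477 CPM in MSA-2 tumors (log2 ratio 0.75). Vldlr, which lay under 20 CPM in MSA-2 tumors, was steeper there, from 16.6 to 31.7 CPM in untreated (log2 ratio 0.93) and from 6.04 to 25.1 CPM in MSA-2 tumors (log2 ratio 2.05). The covariation therefore persisted in MSA-2 tumors at a similar or greater steepness for most of these genes.

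**Figure D5:**
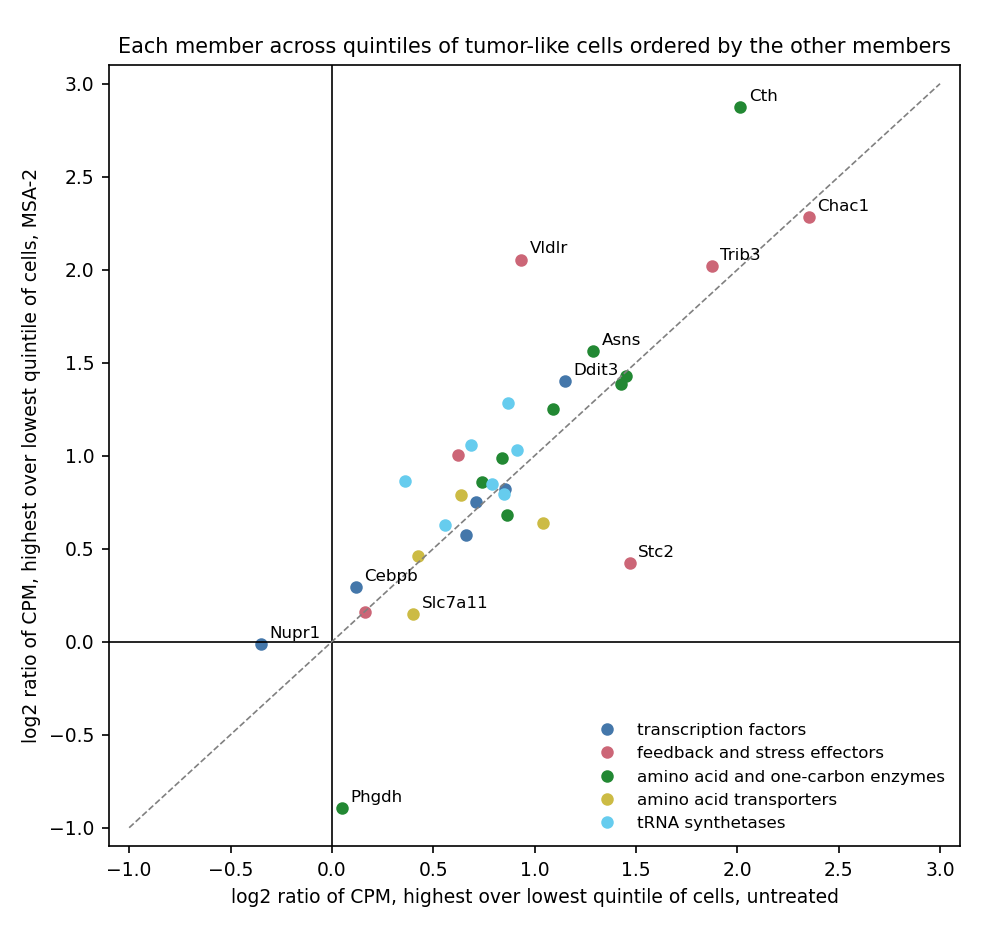
Log2 ratio of CPM between the highest and lowest quintile of tumor-like cells, ordered by the sum of all other members, in untreated and MSA-2 tumors. The dashed line marks equal ratios.

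Slc7a11, Ppp1r15a, Cebpb, Nupr1 and Phgdh stood apart from this covariation. Slc3a2 also missed 1.5-fold in both libraries (log2 ratio 0.43 in untreated and 0.46 in MSA-2 tumors). Eprs (0.36 and 0.87) and Aars missed it in untreated tumors, and Cebpg in MSA-2 tumors. Slc7a11 ran from 43.7 to 57.6 CPM in untreated (log2 ratio 0.40) and from 83.6 to 92.6 CPM in MSA-2 tumors (log2 ratio 0.15). Ppp1r15a ran from 186 to 208 CPM in untreated (log2 ratio 0.17) and from 206 to 230.2 CPM in MSA-2 tumors (log2 ratio 0.16). Cebpb ran from 266 to 289 CPM in untreated (log2 ratio 0.12) and from 337 to 412 CPM in MSA-2 tumors (log2 ratio 0.29). These genes thus differed little between cells high and low in the other members. Nupr1 ran the other way in untreated tumors, from 971 to 762 CPM in untreated (log2 ratio −0.35) and from 533 to 528 CPM in MSA-2 tumors (log2 ratio −0.01). Phgdh was flat in untreated and opposite in MSA-2 tumors, from 855 to 886 CPM in untreated (log2 ratio 0.05) and from 1271 to 683 CPM in MSA-2 tumors (log2 ratio −0.90).

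Phgdh and Nupr1 ran against each other when cells were ordered by either gene, a step added after these slopes had been seen. In cells ordered by Phgdh, Nupr1 ran from 952 to 775 CPM (log2 ratio −0.30) in untreated tumors. In MSA-2 tumors Nupr1 ran from 645 to 402 CPM (log2 ratio −0.68) along the same order. The other members changed their relation to Phgdh between the libraries. Along Phgdh, the members other than Phgdh and Nupr1 ran from 3669 to 4174 CPM (log2 ratio 0.19) in untreated tumors. In MSA-2 tumors they ran from 4163 to 3274 CPM (log2 ratio −0.35), so the sign of the relation turned. Asns ran from 175 to 279 CPM (log2 ratio 0.68) along Phgdh in untreated tumors. Along the same order in MSA-2 tumors Asns ran from 185 to 144 CPM (log2 ratio −0.36). Cells high in Phgdh were thus richer in Asns, and in the sum without Phgdh and Nupr1, in untreated tumors but not in MSA-2 tumors.

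The order by Nupr1 gave a further split. In cells ordered by Nupr1, Ddit3 ran from 104 to 271 CPM (log2 ratio 1.39) in untreated tumors. Along the same order Psat1 ran from 149 to 64.3 CPM (log2 ratio −1.21). In MSA-2 tumors Psat1 ran from 149.7 to 107 CPM (log2 ratio −0.49) along Nupr1. Ddit3 ran from 113 to 195 CPM (log2 ratio 0.79) along Nupr1 in MSA-2 tumors. Asns (log2 ratio −0.61 in untreated and −0.08 in MSA-2 tumors), Psph (−0.94 and −0.11) and Mthfd2 (−0.84 and −0.19) ran less steeply in MSA-2 tumors. Phgdh ran more steeply there (−0.25 and −0.44). Nupr1 thus went with Ddit3 and against Psat1 in both libraries.

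Genes outside the members that followed the member sum included further known ATF4 targets. Gadd45a, a growth arrest gene, ran from 33.03 to 117 CPM in untreated and 30.6 to 127 CPM in MSA-2 tumors. Gpt2, a mitochondrial alanine transaminase, ran from 11.1 to 28.4 CPM in untreated and 8.75 to 30.8 CPM in MSA-2 tumors. Aldh1l2, a mitochondrial folate enzyme, ran from 24.7 to 60.8 CPM in untreated and 23.7 to 61.3 CPM in MSA-2 tumors. Ero1l, an oxidase of the endoplasmic reticulum, ran from 201 to 458 CPM in untreated and 107 to 361 CPM in MSA-2 tumors. Of the 10 steepest genes these 4 also belong to the list of other ATF4 targets. The steepest of all was Car6, a secreted carbonic anhydrase, from 12.4 to 75.6 CPM in untreated and 6.79 to 71.5 CPM in MSA-2 tumors.

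Other lists were read across the same order. The list of other ATF4 targets as a sum ran from 1776 to 2795 CPM in untreated (log2 ratio 0.65) and from 1578 to 2700.4 CPM in MSA-2 tumors (log2 ratio 0.78). Of 10 lists, 8 were above 0 in both libraries and 1 was below 0 in both. Among single genes outside the members, 1982 of 5656 were above 0 in both. The G2 and mitosis list ran from 739 to 1042 CPM in untreated (log2 ratio 0.50) and from 940.1 to 1069.9 CPM in MSA-2 tumors (log2 ratio 0.19). The hypoxia list ran from 2176 to 2550.5 CPM in untreated (log2 ratio 0.23) and from 1581 to 2386 CPM in MSA-2 tumors (log2 ratio 0.59). The NRF2 targets ran from 335 to 444 CPM in untreated (log2 ratio 0.41) and from 431 to 564 CPM in MSA-2 tumors (log2 ratio 0.39). The covariation was thus not limited to ATF4 targets. The other cytosolic tRNA synthetases ran from 774 to 1088 CPM in untreated (log2 ratio 0.49) and from 889 to 1268 CPM in MSA-2 tumors (log2 ratio 0.51). Weaker slopes were seen for the unfolded protein response, from 3479 to 3964 CPM in untreated (log2 ratio 0.19) and from 2770.0 to 3389 CPM in MSA-2 tumors (log2 ratio 0.29). Those of the S phase list were from 437 to 521 CPM in untreated (log2 ratio 0.26) and from 495 to 509.5 CPM in MSA-2 tumors (log2 ratio 0.04). The amino acid catabolism list ran against the order, from 57.8 to 48.5 CPM in untreated (log2 ratio −0.25) and from 321 to 268 CPM in MSA-2 tumors (log2 ratio −0.26). The interferon-stimulated list did not follow, from 1942 to 1908 CPM in untreated (log2 ratio −0.03) and from 4526 to 4663 CPM in MSA-2 tumors (log2 ratio 0.04).

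A sequence feature shared by some members was searched in the promoters, taken as 250 bases before to 50 after the gene start from RefSeq on GRCm38.p6. Promoters were found for 27 members, while Slc7a5, Slc7a3, Slc1a5, Cth, Cars and Nars had no entry under these symbols in the promoter set used. The C/EBP-ATF response element, TGATGNAA on either strand, occurred in the promoters of 10 of these 27 genes (37.0%), beside 4.51% of 27025 genes. The 10 were Aars, Asns, Chac1, Gars, Nupr1, Pycr1, Slc7a11, Tars, Trib3 and Vldlr. Shown are 48-base windows of members that lead the results above, each from 5′ to 3′ on the strand of the gene, with the match to the element in capitals.

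Chac1, chr2:119351038-119351085, plus strand: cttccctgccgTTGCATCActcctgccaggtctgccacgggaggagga
Trib3, chr2:152344011-152344058, minus strand: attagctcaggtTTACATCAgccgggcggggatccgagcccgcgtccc
Asns, chr6:7693196-7693243, minus strand: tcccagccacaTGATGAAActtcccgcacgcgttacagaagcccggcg
Slc7a11, chr3:50443643-50443690, minus strand: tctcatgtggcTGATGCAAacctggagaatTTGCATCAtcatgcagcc
Nupr1, chr7:126625544-126625591, minus strand: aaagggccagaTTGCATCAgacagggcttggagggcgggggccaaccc
Vldlr, chr19:27216809-27216856, plus strand: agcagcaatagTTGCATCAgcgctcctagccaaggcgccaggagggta

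Members with the element differed in direction in the tumor. Slc7a11 has a pair of matches, on opposite strands, and Slc7a11 was higher in MSA-2 tumors while Nupr1 was lower and Asns was below level. The median of the smaller log2 slope across quintiles was 0.83 for the 10 members with a match and 0.68 for the 17 members with a promoter and no match. Nupr1 and Slc7a11 both carry a match and stood apart from the other members across cells. A match describes the sequence, and binding was not tested.

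Related lists were read beside the members. In tumor-like cells the interferon-stimulated list had a median log2 ratio of 1.62, with 10 of 12 genes higher past the fold, while the other ATF4 targets had −0.05 and the unfolded protein response −0.17. Of the other ATF4 targets Hmox1, a heme oxygenase also known as an NRF2 target, was highest, at 62.4 and 102 CPM (log2 ratio 0.71, 0.67 to 0.75). Gdf15, a secreted stress signal, was lowest, at 2.83 and 1.78 CPM (log2 ratio −0.66, −0.89 to −0.44). The eIF2 kinases and regulators had a median of 0.01, below 0 with TMM scaling, in which Eif2ak2, the gene of PKR, was the highest, at 38.9 and 81.0 CPM (log2 ratio 1.06, 1.01 to 1.10). The members thus stood closer to the unfolded protein response than to the interferon list in tumor-like cells.

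The same contrast was seen outside the tumor. In Ly6c2 monocyte-like cells the interferon-stimulated list had a median log2 ratio of 2.89 and the unfolded protein response −0.36, beside −0.03 for the members. The NRF2 targets, a group to which Slc7a11 is often ascribed, had a median of 0.93 in macrophage-like, 0.52 in fibroblast-like, 0.15 in Ly6c2 monocyte-like, 0.12 in NK/T-like, 0.08 in tumor-like and −0.23 in endothelial-like cells. These medians are descriptions of a single library per group and were not tested.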

How the data were processed

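Raw UMI counts per gene and barcode were deposited without normalization for 2 10x Chromium 3′ v3.1 libraries, 1 from untreated and 1 from MSA-2 tumors, each from tumors pooled over 3 mice, and the authors made these counts with Cell Ranger (7.0.0 per the labels, 7.0.1 in the file headers, another version in the paper's methods) on mm10. The series text states the pooling as mice or samples and names saline with DMSO as the vehicle, while the sample label reads untreated. The libraries held 198135335 and 204387165 UMIs in 14386 and 14617 barcodes, of which 53 occurred in both.

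Barcodes passed the filter if they held 500 genes or more and no more than 20% of UMIs from mitochondrial genes (14039 and 13963), and doublets called by Scrublet in scanpy 1.11.5 at 0.8% per 1000 barcodes were removed (734 and 570). Kept cells held a median of 8289 and 9271 UMIs. Cells were sorted into 10 classes by summed marker UMIs with cuts set from the score histograms, and 849 and 956 cells stayed unassigned. UMIs were summed over cells of a class and divided by all UMIs of that class. Classes with at least 50 cells in both libraries were compared, and a member counted as measured in a class from a joint total of 50 UMIs. Intervals were exact (Poisson or conditional binomial, scipy 1.17.1). Cells were thinned at random to 5000 UMIs with a fixed seed for the spread. The ratio code was tested on simulated data. Alternatives included edgeR 4.0.16 TMM factors in R 4.3.3. Members and lists were chosen with earlier results of these data known. Gate cuts, role groups, the comparisons with tumor and neutrophil RNA, the motif comparison of slopes the orders by Phgdh and Nupr1 and the spread without the top cell were chosen after values had been seen. No p-value was computed, since cells are not replicates and each group has 1 library. Bulk and protein experiments were not used here.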

Additional observations from a re-analysis of the deposited data

Results flagged for a closer look

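Nupr1 and Cebpb were past 1.5-fold in opposite directions in different cell classes. The log2 ratio of Nupr1 in Ly6c2 monocyte-like cells less that in MC38 tumor-like cells was 3.03, with the gene higher in MSA-2 tumors in the first class and lower in the second. The log2 ratio of Cebpb in endothelial-like cells less that in Ly6c2 monocyte-like cells was 2.57. Each class had 1 library per group, and neither difference was tested.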

How the results depend on the processing

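No paired analysis was possible because each group is 1 pooled library, and the replicate number 1 that the labels share pairs no animals. The sum kept its sign under 7 of 7 alternatives in tumor-like cells and in 33 of 34 values elsewhere, and the member medians, many near 0, in 35 of 47. Of 992 values of single members under the alternatives 906 kept their sign, and of 244 past 1.5-fold 243 did; Shmt2 in endothelial-like cells turned to −0.25 with equal weight per cell. Endothelial-like cells were too few for a value under the stricter gate. In tumor-like cells the log2 ratio of the sum was −0.15 with TMM, −0.13 with median of ratios, −0.0743 with equal weight, −0.0776 with the stricter gate and −0.10 without Phgdh; the median was −0.0472 with TMM and −0.03101 with median of ratios; TMM left 1 member higher, 3 were lower with TMM, 3 with median of ratios and 3 with equal weight, Vldlr among them each time, and 2-fold left 0 higher and 0 lower. In fibroblast-like cells the sum was 0.36 with doublets kept, 0.66 with TMM, 0.66 with median of ratios and 0.29 without Nupr1, and the median 0.35 with TMM and 0.34 with median of ratios; 2 members were higher at 2-fold, and 2 were lower with doublets kept, 2 with the stricter gate and 0 at 200 UMIs. In endothelial-like cells the sum was 0.79 with TMM, 0.78 with median of ratios and 0.36 without Ppp1r15a; 4 members were higher at 200 UMIs and 4 at 2-fold, and 2 were lower with doublets kept, 2 with equal weight and 0 at 200 UMIs. In macrophage-like cells the sum was 0.39 with doublets kept, 0.62 with TMM, 0.63 with median of ratios, 0.61 with equal weight and 0.18 without Ppp1r15a, and the median −0.11 with doublets kept; 1 member was lower with equal weight and 0 at 2-fold. In Ly6c2 monocyte-like cells the sum was 0.53 with doublets kept, 0.95 with TMM, 0.95 with median of ratios and 0.0574 without Ppp1r15a; 8 members were higher with TMM and 8 with median of ratios, and 2 were lower with doublets kept, 2 with TMM, 2 with median of ratios, 2 at 200 UMIs and 1 at 2-fold. In NK/T-like cells the sum was 0.16 with doublets kept, 0.43 with TMM, 0.44 with median of ratios, 0.42 with equal weight and −0.0615 without Ppp1r15a; 1 member was higher with doublets kept, 1 with the stricter gate, 1 at 200 UMIs and 1 at 2-fold, and 7 were lower with doublets kept and 1 at 2-fold. The coefficient of variation beyond counting error in untreated tumors was 31.3% thinned to 10000 UMIs, 32.1% not thinned and 33.8% without Phgdh and Nupr1. In MSA-2 tumors it was 27.9%, 28.4% and 36.4%, and 27.7% with doublets kept. Without the cell with most UMIs of the gene, an alternative chosen after seeing the data, the variance over mean in tumor-like cells was 1.95 in untreated and 1.498 in MSA-2 tumors for Ddit3, and 1.55 and 2.13 for Slc7a11. The causes were not tested.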
